A study of Danio rerio with 4 samples.

Results

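Collagens and other structural proteins of the extracellular matrix were described in zebrafish larvae with a mutation in uhrf1, set against wildtype larvae. Members were the probe sets whose annotation gave exactly 1 gene symbol and whose symbol named a collagen, a laminin chain, a fibronectin (fn1), a tenascin (tnc or tnn), a thrombospondin, sparc, lumican, decorin, a fibrillin, a periostin, a matrilin, aggrecan, versican, a link protein (hapln), a lysyl oxidase or biglycan. The rule found 62 probe sets of 15502 tested, which stood for 47 genes. Of these probe sets, 25 belonged to 21 collagen genes. No member carried the name of lumican, a fibrillin or a type IV collagen, and 1 further probe set annotated to both dcxr and col1a1b was left out.

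RNA came from larvae at 120 hours post fertilization and was hybridised to Affymetrix zebrafish arrays of 1 colour. There were 2 uhrf1 mutant arrays (replicates 1 and 2) and 2 wildtype arrays (replicates 1 and 3). Hours were used for the age as in the source label and the design text, although 1 protocol line has days. Per the labels' growth protocol, offspring of uhrf1hi272+/- fish served in most of the study's experiments. The protocol also names Tg(fabp10:hUHRF1-GFP), a line in which a liver promoter drives human UHRF1, but the label of each array says only uhrf1 mutant or wildtype and gives neither allele nor zygosity. The labels do not tell single larvae from pools, or say whether replicates were separate clutches. The p-values therefore reflect how far these samples scatter, and that scatter may be technical only.

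UHRF1 binds hemimethylated DNA after replication and recruits the maintenance DNA methyltransferase. The matrix genes described here encode the scaffold that surrounds cells: fibrillar collagens bear tension in skin, bone, cartilage and tendon, laminins build the basement membrane under epithelia and around the notochord and muscle, and glycoproteins and proteoglycans link, space and hydrate these networks. In a larva of this age cartilage makes up most of the head skeleton, the first bones are mineralising, and the notochord and skin are rich in collagen.

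The uhrf1 transcript was examined first. Its brighter probe set read 41.1 and 26.3 on the mutant arrays, against 47.4 and 41.5 on the wildtype arrays, a log2 change of -0.42 ± 0.23 (SE) at a limma adjusted p of 0.56, and the other probe set read close to background. Both mutant arrays lay below both wildtype arrays, but the change did not pass the test, and it was 0.07 with another scaling, described next. Leaving out mutant replicate 1 gave -0.73, and leaving out mutant replicate 2 gave -0.11. The sources used here do not place these probes against the mutation, so this level does not check the labels.

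Median intensities of the 4 arrays lay between 29.4 and 31.5. The 18 hybridisation control probe sets, which measure transcripts added in fixed amounts, had a mean log2 difference of -0.49, mutant minus wildtype. Single control probe sets ran from -0.82 to -0.06, the smallest difference being that of the brightest. Scaling on the controls moves all probe sets of an array by 1 common amount, whatever their intensity. Over all probe sets the median log2 change was -0.04 as deposited and 0.45 with arrays scaled on these controls, and that of the members was 0.06 and 0.55. All changes are therefore given relative to the other transcripts on the array, and a negative change closer to 0 than about -0.49 turns positive with that scaling. Scaled on the controls, 25 of the 62 members were called higher and 0 lower by limma, where 33.1% of all probe sets were called higher and 0.619% lower. Of the 62 members, 15 read below 12.7 intensity units, the value that bounds the dimmest 25% of probe sets, where RMA, the authors' normalization, understates changes.

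Most of the matrix set did not pass the test. By limma, with Benjamini-Hochberg adjustment over all 15502 probe sets and a threshold of 0.05, 1 of the 62 members was higher in uhrf1 mutants, none was lower and 61 did not pass. Among all probe sets 0.845% were called higher, 0.658% lower and 1.5% in either direction, so 1 member in 62 lies close to the background. With an unadjusted p under 0.05 in limma, 4 members were higher and 1 lower, beside 5.1% and 6.84% of all probe sets (11.9% in either direction). The members' log2 changes ran from -0.94 to 0.85 with a median of 0.06, beside a median of -0.04 over all probe sets, and 41 of 62 members (66.1%) had a value above 0, beside 39.9% of all probe sets. Without mutant replicate 1, 33 members (53.2%) lay above 0, beside 43.8% of all probe sets, and the members' median was 0.02. For comparison within the same arrays, the log2 changes of all probe sets ran from -5.09 to 6.03.

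**Figure D1:**
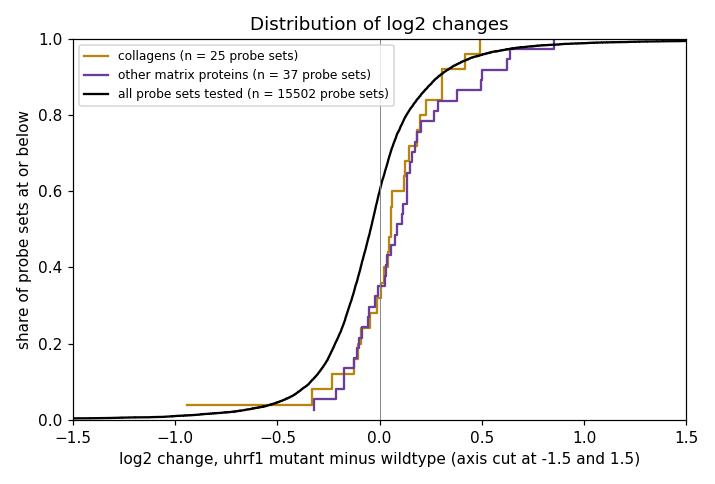
Cumulative share of probe sets (vertical axis) against the log2 change, uhrf1 mutant minus wildtype (horizontal axis), for the 25 collagen probe sets, the 37 other matrix probe sets and all 15502 probe sets tested. The medians are 0.05 for collagens, 0.08 for the other matrix probe sets and -0.04 for all probe sets, and no matrix probe set lies outside -0.94 to 0.85.

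A p that misses the threshold does not show that a gene did not differ, so the intervals are given as well. Limma's 95% interval for the change lay inside -1 to 1 on the log2 scale for 55 of the 62 members (88.7%), beside 91.3% of all probe sets. The 7 members with wider or more distant intervals were probe sets of col2a1a, col11a1a, col10a1a, lamc1, fn1a, tnn and dcn. The median half-width of the members' intervals was 0.41. Mutant and wildtype arrays did not overlap for 18 members, 11 with the mutants above and 7 below, where 14.9% and 26.3% of all probe sets had those orders.

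**Figure D2:**
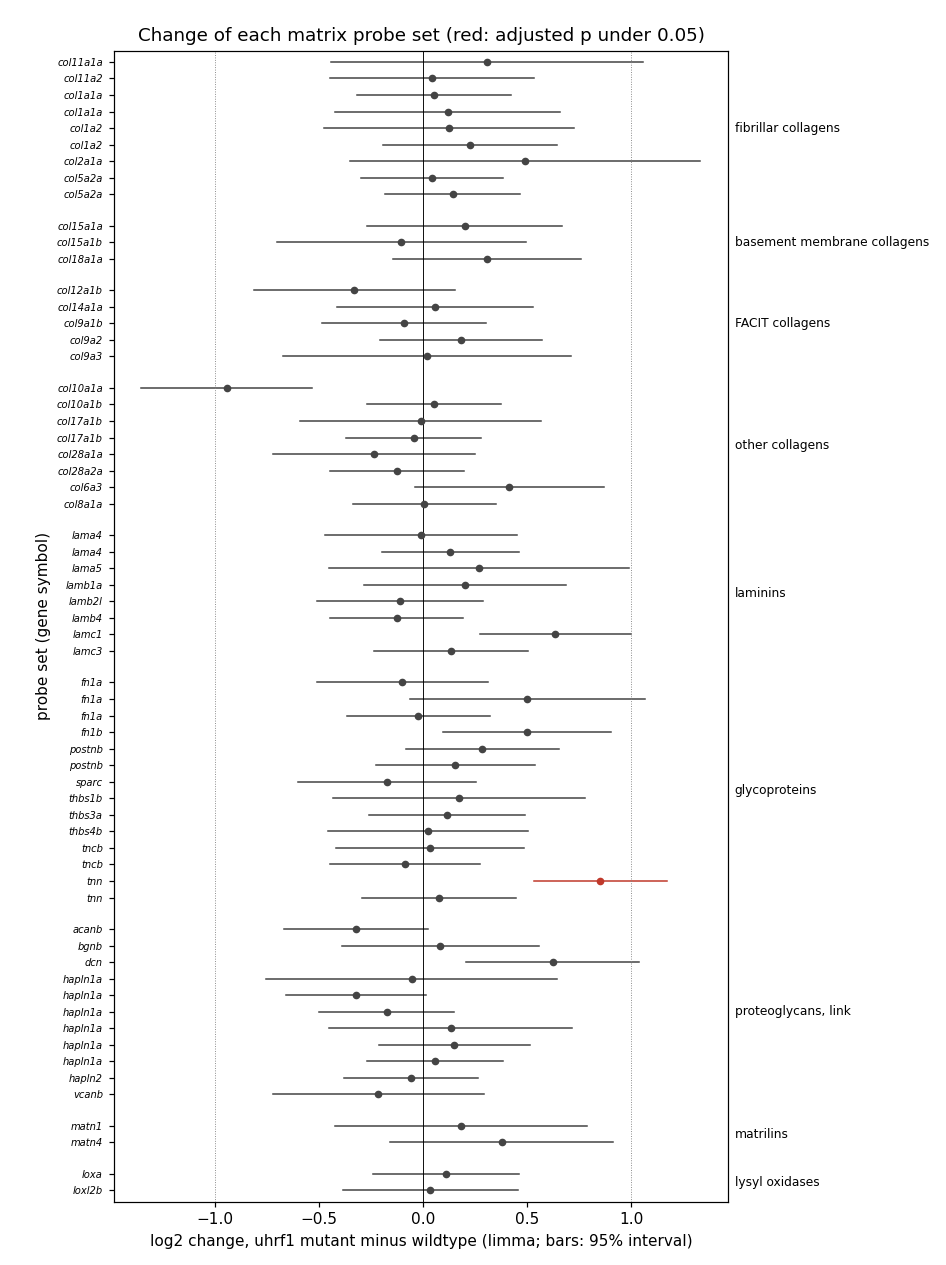
Log2 change, uhrf1 mutant minus wildtype, of each of the 62 matrix probe sets (points) with limma's 95% interval (bars), grouped by role, dotted lines at -1 and 1. The probe set of tnn drawn in red, at 0.85, is the one with an adjusted p under 0.05, and col10a1a lies at -0.94.

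Fibrillar collagens assemble into the cross-striated fibres of connective tissue, and none of their 9 probe sets, from 6 genes, passed the test in limma (none at an unadjusted p under 0.05 either). All 9 values lay above 0, between 0.04 and 0.49, with a median of 0.12, and only a dim probe set of col5a2a had arrays that did not overlap. This pattern depended on mutant replicate 1, without which 4 of the 9 lay above 0 and the median was -0.06. The type I collagen gene col1a1a, whose chain is the main one of skin and bone, read 1639 and 1360 intensity units on the mutant arrays, against 1392 and 1487 on the wildtype arrays. Its partner chain col1a2 read 1008 and 645 on the mutant arrays, against 833 and 657 on the wildtype arrays. In both genes the groups overlapped, with log2 changes of 0.05 ± 0.15 and 0.12 ± 0.25 (SE), and a second probe set gave 0.12 for col1a1a and 0.23 for col1a2. Both col1a1a probe sets carry the suffix that Affymetrix gives to probes shared by related transcripts, so col1a1b may contribute to them.

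The type II collagen gene col2a1a, the main collagen of cartilage and of the notochord sheath, read 2557 and 1194 on the mutant arrays, against 1326 and 1166 on the wildtype arrays. One mutant array was far above the other 3, which lay close together. The log2 change was 0.49 ± 0.35 (SE) at a limma adjusted p of 0.68, and without mutant replicate 1 it was -0.06. Type XI collagen, which nucleates type II fibrils, showed the same array standing high for col11a1a, at 897 and 474 in mutants, against 586 and 474 in wildtype larvae, and col11a2 had a change of 0.04. The type V gene col5a2a, whose product sets fibril diameter, read 216 and 217 on the mutant arrays, against 196 and 225 on the wildtype arrays, a log2 change of 0.04 with an interval from -0.30 to 0.38.

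Basement membrane collagens were represented by 3 genes, and none passed the test in limma (none at an unadjusted p under 0.05 either). The type XVIII gene col18a1a, whose product is cleaved to release endostatin, read 354 and 266 on the mutant arrays, against 230 and 268 on the wildtype arrays, a log2 change of 0.31 ± 0.19 (SE). The groups overlapped at their edge, and the change was 0.10 without mutant replicate 1 and 0.51 without replicate 2. The related type XV genes col15a1a and col15a1b had log2 changes of 0.20 and -0.11.

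The FACIT collagens sit on the surface of fibrils and tie them to other molecules. None of their 5 probe sets passed in limma (none at an unadjusted p under 0.05), and their median log2 change was 0.02. For col12a1b, a gene of tendon and fascia, the mutant arrays read 120 and 171, against 188 and 173 on the wildtype arrays, a log2 change of -0.33 ± 0.20 (SE) that turned to 0.16 with arrays scaled on the controls. Both mutant arrays lay below both wildtype arrays as deposited, 1 of them by a small margin, and the change was -0.08 without mutant replicate 1 and -0.59 without replicate 2. The 3 type IX chains, which coat the fibrils of cartilage, had changes of -0.09 (col9a1b), 0.18 (col9a2) and 0.02 (col9a3), and col14a1a had one of 0.06. Without mutant replicate 1 the value of col9a3 was -0.42.

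Type X collagen gave the lowest value of all members. The gene col10a1a encodes a short-chain collagen that marks hypertrophic cartilage in mammals and is made by bone-forming cells in zebrafish. It read 289 and 226 on the mutant arrays, against 469 and 517 on the wildtype arrays. Both mutant arrays were far below both wildtype arrays, with means of 258 ± 44.3 and 493 ± 34.2 (SD, n = 2 each) and a mutant over wildtype ratio of 0.522. The log2 change was -0.94 ± 0.17 (SE), with a 95% interval from -1.35 to -0.53 and a limma adjusted p of 0.067, just short of the threshold. It passed when the dimmest 25% of probe sets were left out, where limma gave an adjusted p of 0.045 and called 1.48% of all probe sets higher and 1.27% lower. It also passed with an intensity-dependent prior, at a limma adjusted p of 0.033, where 1.34% were called higher and 1.21% lower, and at a threshold of 0.1, where 1.37% and 1.33% were. Scaled on the controls, the change was -0.45 and did not pass. It also did not pass after quantile normalization (limma adjusted p of 0.083) or median centring (0.10). With a pseudocount of 16 limma gave an adjusted p of 0.14, and without moderation 0.57. With 1 array left out the change ran from -1.12 to -0.77. It passed in 3 of the 16 alternatives, which include leaving out each array. Its paralogue col10a1b read between 11.8 and 13.0 on all 4 arrays, close to the dim bound. In whole larvae fewer cells of a type and less RNA per cell cannot be told apart.

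Because col10a1a is also a gene of osteoblasts, the cells that lay down bone, the list of osteoblast genes was set beside it. The list includes col10a1a itself and its paralogue col10a1b. Of 9 measured genes 1 was lower by limma, none was higher and 8 did not pass, where 0.967% of all genes at their brightest probe set were called lower. The called gene was ifitm5, a membrane protein of mineralising osteoblasts, which read 58.5 and 58.6 on the mutant arrays, against 108 and 112 on the wildtype arrays, a log2 change of -0.90 ± 0.13 (SE) at a limma adjusted p of 0.037. The osteoblast transcription factor gene sp7 read 16.6 and 17.9 in mutants, against 24.2 and 22.2 in wildtype larvae, with a change of -0.41 ± 0.14 (SE) that did not pass and turned to 0.08 with arrays scaled on the controls, where that of ifitm5 was -0.41. The related factors runx2a and runx2b had changes of -0.53 ± 0.33 and -0.19 ± 0.16 (SE) with overlapping arrays. The probe sets of sp7 and runx2b carry the suffix that Affymetrix gives to probes shared by related transcripts. The bone genes spp1, phex and alpl had changes of -0.09, -0.12 and -0.06, with overlapping arrays for spp1 and alpl. Scaled on the controls, these changes turned to 0.40, 0.37 and 0.43. Leaving out the members of the matrix rule, the osteoblast list summed to between 290.0 and 332 intensity units on the mutant arrays and between 386 and 452 on the wildtype arrays. These sums are of deposited intensities, not scaled on the controls. Among all genes at their brightest probe set 29.4% had both mutant arrays below. The part of osteoblast number in the level of col10a1a was not tested.

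**Figure D3:**
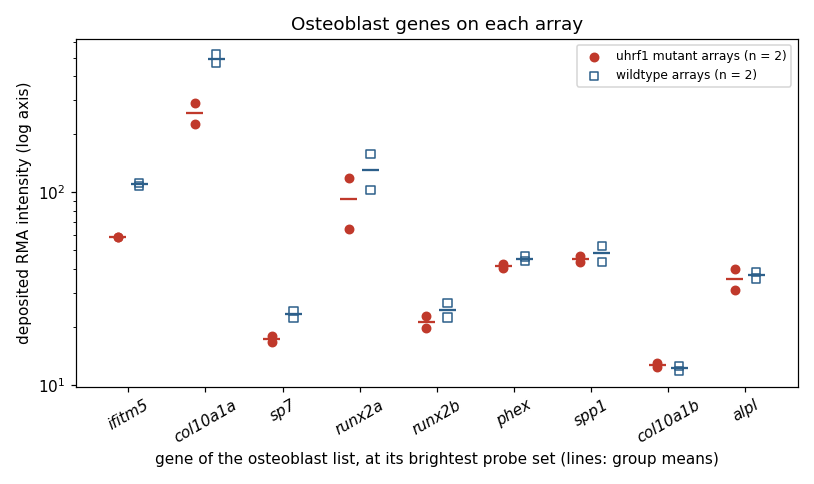
Deposited intensity (log axis) of the 9 measured genes of the osteoblast list on each array, mutant arrays as filled circles left of wildtype arrays as open squares, with lines at the group means, ordered by limma p. Mutant arrays lie below wildtype arrays for ifitm5, col10a1a, sp7 and phex, and the arrays overlap for the other 5 genes. The 9 genes include the matrix members col10a1a, beside which the list was set, and col10a1b. Among all genes at their brightest probe set 29.4% have both mutant arrays below.

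The remaining collagens form beaded filaments, short-chain networks, or anchors in the cell membrane. The type VI gene col6a3, of the beaded filaments around muscle fibres, read 113 and 81.7 on the mutant arrays, against 70.4 and 73.5 on the wildtype arrays. Both mutant arrays were above, and the log2 change was 0.42 ± 0.19 (SE) at a limma adjusted p of 0.46. It was 0.18 without mutant replicate 1 and 0.65 without replicate 2. For col28a2a the mutant arrays read 23.6 and 24.4, against 27.1 and 25.4 on the wildtype arrays, a change of -0.13 that turned to 0.36 scaled on the controls, and col28a1a had a change of -0.23. The hemidesmosome collagen gene col17a1b had values of -0.01 and -0.05 in its pair of probe sets, and col8a1a a value of 0.01.

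Laminins are trimers of an alpha, a beta and a gamma chain. None of their 8 probe sets, from 7 genes, passed the test in limma. At an unadjusted p under 0.05 there was 1, higher, where 5.1% of all probe sets were. That was lamc1, the gamma chain of most early laminins, which read 20.0 and 24.3 on the mutant arrays, against 13.7 and 13.9 on the wildtype arrays. Both mutant arrays were above, by 0.64 ± 0.15 (SE, log2) with an interval from 0.27 to 1.00 and a limma adjusted p of 0.15. Its wildtype values were near the dim bound, where RMA understates differences.

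The other laminin chains lay closer to 0. The beta chain gene lamb1a, whose product pairs with that of lamc1 in the notochord sheath, read 127 and 91.4 on the mutant arrays, against 102 and 86.4 on the wildtype arrays, a change of 0.20 ± 0.20 (SE) that was -0.04 without mutant replicate 1. The alpha chain gene lama5, of skin and fin basement membranes, read 96.2 and 51.5 on the mutant arrays, against 53.4 and 63.7 on the wildtype arrays, so that 1 mutant array was high and the other at the wildtype level. The vascular alpha chain gene lama4 gave -0.01 and 0.13 in its pair of probe sets. For lamb4 both mutant arrays, at 12.5 and 12.4, lay below the wildtype arrays at 14.2 and 13.3, with a change of -0.13 that turned to 0.36 scaled on the controls. The chains lamb2l and lamc3 had changes of -0.11 and 0.13.

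The only member that passed was a probe set of tnn, the gene of a tenascin found in developing bone and connective tissue. It read 58.4 and 55.3 on the mutant arrays, against 30.3 and 31.7 on the wildtype arrays, with means of 56.8 ± 2.19 and 31.0 ± 0.991 (SD, n = 2 each). The arrays of each group lay close together and the groups stood well apart. The probe set rose 1.83-fold, a log2 change of 0.85 ± 0.13 (SE) with a 95% interval from 0.53 to 1.17 and a limma adjusted p of 0.045. The second probe set of tnn did not share this, with 36.5 and 43.9 on the mutant arrays, against 39.5 and 36.3 on the wildtype arrays, and a log2 change of 0.08 ± 0.15 (SE). The mean of both probe sets gave 0.46 with a limma adjusted p of 0.18, so the gene as a whole was not called. With any 1 of the 4 arrays left out the call of the first probe set was lost, at limma adjusted p-values from 0.10 to 0.15, with changes between 0.81 and 0.89.

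Among the other 12 probe sets of adhesive and matricellular glycoproteins, none passed. Fibronectin, which cells bind through integrins, has a pair of genes in zebrafish. The gene fn1b read 229 and 185 on the mutant arrays, against 156 and 136 on the wildtype arrays, a log2 change of 0.50 ± 0.17 (SE) at a limma adjusted p of 0.31. The mutant arrays both were above both wildtype arrays. Its paralogue fn1a gave -0.10, 0.50 and -0.02 in its 3 probe sets, of which the second had non-overlapping arrays, so the probe sets of this gene disagreed. The periostin gene postnb, of fin fold and tendon matrix, read 889 and 737 on the mutant arrays, against 675 and 655 on the wildtype arrays, with 0.28 ± 0.15 (SE) and a second probe set at 0.16. The first was 0.15 without mutant replicate 1.

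The collagen-binding protein gene sparc, also called osteonectin, read 1075 and 1213 on the mutant arrays, against 1129 and 1470 on the wildtype arrays, a log2 change of -0.17 ± 0.18 (SE) that turned to 0.32 scaled on the controls and to 0.02 without wildtype replicate 3. The thrombospondins, which bind matrix and calcium, had changes of 0.17 (thbs1b), 0.11 (thbs3a) and 0.03 (thbs4b), the last a gene of tendon attachment. The tenascin C gene tncb had values of 0.03 and -0.09. In each of these the arrays of the groups overlapped.

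**Figure D4:**
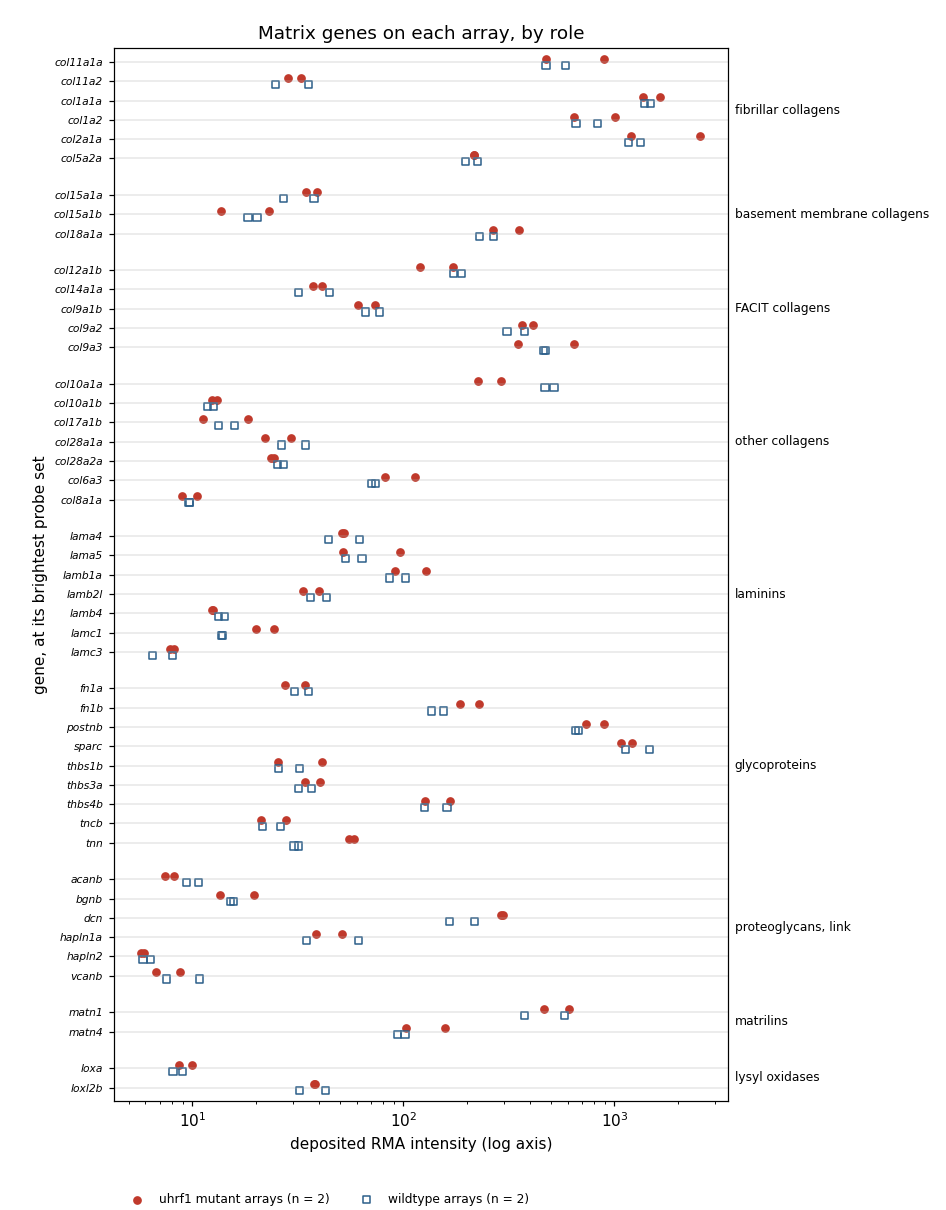
Deposited intensity (log axis) of the 47 matrix genes at their brightest probe set on each array, mutant arrays as filled circles above wildtype arrays as open squares, grouped by role. Groups overlap for 35 of the 47 genes. Mutant arrays lie above in 7 and below in 5, where 15.2% and 29.4% of all genes have those orders. The genes tnn, dcn, lamc1, fn1b and col10a1a are the 5 with an unadjusted limma p under 0.05, beside 14.7% of all genes. Intensities of different probe sets are not on a common scale.

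Proteoglycans carry sugar chains that hold water and bind growth factors. The small leucine-rich proteoglycan gene dcn, decorin, which limits the lateral growth of collagen fibrils, read 297 and 289 on the mutant arrays, against 218 and 166 on the wildtype arrays. The mutant arrays lay close together and above both wildtype arrays. The log2 change was 0.62 ± 0.17 (SE), a ratio of 1.53, with a limma adjusted p of 0.21. Of the 11 probe sets in this class 1, that of dcn, was higher at an unadjusted p under 0.05, where 5.1% of all probe sets were, and none passed the adjusted threshold. The biglycan gene bgnb had a change of 0.08. The aggrecan gene acanb and the versican gene vcanb, whose large products fill cartilage and embryonic matrix, read below the dim bound, with changes of -0.32 and -0.21.

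Link proteins hold aggrecan and versican on hyaluronan. The gene hapln1a had 6 probe sets, 3 of them above the dim bound, with changes between -0.32 and 0.15 that did not share a sign. The brightest read 38.5 and 51.4 on the mutant arrays, against 34.9 and 61.2 on the wildtype arrays, so the spread within each group exceeded the difference between them. Its relative hapln2 read 5.75 to 6.36 across arrays, below the dim bound.

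The matrilins connect collagen fibrils with proteoglycans in cartilage. The cartilage gene matn1 read 606 and 462 on the mutant arrays, against 580 and 375 on the wildtype arrays, with 0.18 ± 0.25 (SE), which was -0.01 with mutant replicate 1 left out and -0.13 with wildtype replicate 3 left out. The broader matn4 read 158 and 103 on the mutant arrays, against 94.0 and 102 on the wildtype arrays, with 0.38 ± 0.22 (SE) and a limma adjusted p of 0.60. One mutant matn4 value stood high and the other at the upper edge of the wildtype range, and the change was 0.07 without mutant replicate 1. Lysyl oxidases cross-link collagen and elastin. Their genes loxa, below the dim bound, and loxl2b had changes of 0.11 and 0.03, and loxl2b read 38.1 and 37.9 on the mutant arrays, against 32.2 and 42.8 on the wildtype arrays. Without wildtype replicate 1 the change of loxl2b was -0.17.

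A second feature of the set, though not particular to it, was the distance between the mutant arrays. The arrays of mutant replicates 1 and 2 differed by more than 0.5 on the log2 scale in 14 of 62 members (22.6%), beside 9.12% of all probe sets, while the wildtype arrays did so in 3 members (4.84%), beside 7.29%. Of these 14 members 8 were collagens, led by col2a1a with a difference of 1.1, col11a1a with 0.92 and col9a3 with 0.88 (replicate 1 minus 2). The products of these genes assemble into the same cartilage fibrils. Other chains of these fibrils differed less, with 0.26 for col9a1b, 0.18 for col9a2 and -0.19 for col11a2. Outside the collagens, the laminin gene lama5 differed by 0.89. Of the 14, replicate 1 was the lower in col12a1b and in 1 probe set of hapln1a. In the gene lists used here the share over 0.5 was lowest for muscle (0 of 12 genes) and highest for hepatocyte genes (8 of 11, 72.7%). In hepatocyte genes replicate 1 was the higher in 0 of 11, with a median difference of -0.78 (replicate 1 minus 2). The change between groups was larger than both within-group differences in 12 members (19.4%), beside 28.6% of all probe sets.

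**Figure D5:**
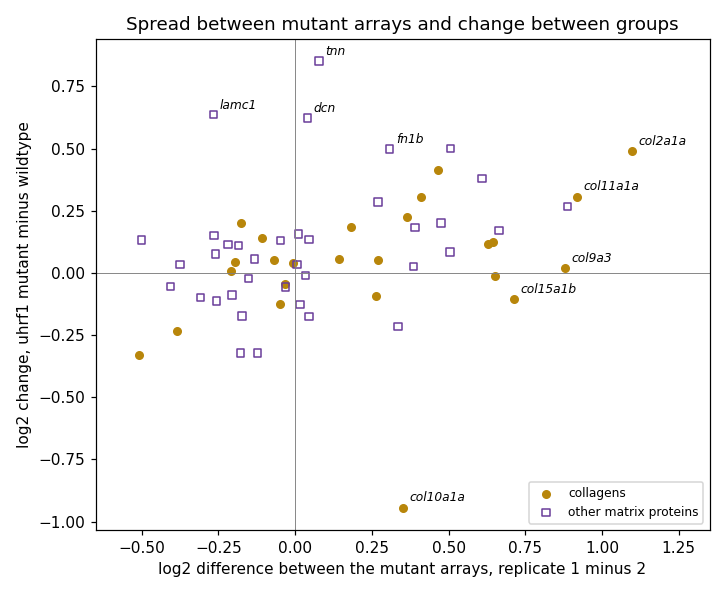
Log2 change, uhrf1 mutant minus wildtype (vertical axis), against the log2 difference between the mutant arrays, replicate 1 minus 2 (horizontal axis), for the 62 matrix probe sets. The genes col2a1a, col11a1a, lama5 and col9a3 lie far right, with differences of 1.1, 0.92, 0.89 and 0.88. The genes tnn, dcn and col10a1a have differences of 0.08, 0.04 and 0.35.

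The chondrocyte list was set beside this difference. None of its 8 measured genes passed between mutants and wildtype larvae in limma (none at an unadjusted p under 0.05), with a median change of 0.03. Without the 2 that belong to the matrix rule, col2a1a and matn1, the list summed to between 253 and 719 intensity units on the mutant arrays and between 380 and 399 on the wildtype arrays. Most of that spread lay in cnmd, the cartilage gene chondromodulin, with 643 and 161 on the mutant arrays, against 289 and 322 on the wildtype arrays. The probe set of cnmd carries the suffix that Affymetrix gives to probes that may also bind other sequences. Of the 8 genes, 3 (col2a1a, matn1 and cnmd) were higher on mutant replicate 1 than on replicate 2 and the other 5 were lower, with a median difference of -0.11 (replicate 1 minus 2). Among these 5, sox9a, the regulator of cartilage genes, read between 12.7 and 16.2 on all arrays. Whether the mutant samples differed in cartilage content was not tested.

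Genes that make, modify and secrete collagen were measured for 17 of 43 listed. By limma 0 of the 17 passed in either direction. Among all genes at their brightest probe set 1.03% were called higher and 0.967% lower. At an unadjusted limma p under 0.05, 2 of the 17 were higher, where 5.74% of all genes were. Of the 17 values, 14 lay above 0, beside 38.7% of all genes, with a median of 0.10. The collagen chaperone gene serpinh1b, Hsp47, read 35.8 and 15.3 on the mutant arrays, against 11.4 and 10.5 on the wildtype arrays, a log2 change of 1.04 ± 0.36 (SE) at a limma adjusted p of 0.33. The mutant arrays both were above, 1 of them far more than the other. Both wildtype values of serpinh1b lay below the dim bound. Over the alternatives its change ran from 0.45, without mutant replicate 1, to 1.63, without mutant replicate 2, and it was called higher in the second case (limma adjusted p of 0.023) and with arrays scaled on the controls (0.046). The lysyl hydroxylase gene plod1a read 75.2 and 63.8 on the mutant arrays, against 56.9 and 45.0 on the wildtype arrays.

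Integrins and other matrix receptors were measured for 13 of 50 listed genes, with 0 passing in limma, 2 higher at an unadjusted p under 0.05 (5.74% of all genes) and a median of 0.02. The hyaluronan receptor gene cd44a read 22.5 and 20.2 in mutants, against 14.7 and 13.9 in wildtype larvae, a change of 0.55 ± 0.14 (SE) at a limma adjusted p of 0.17. Regulators of matrix genes were measured for 27 of 40, with 0 passing, 1 higher and 4 lower at an unadjusted p under 0.05 (background 5.74% and 8.96% of genes) and a median of -0.19. Of these, pax9, of the pharyngeal skeleton, read 43.1 and 38.5 in mutants, against 72.6 and 58.6 in wildtype larvae, a change of -0.67 ± 0.16 (SE) at a limma adjusted p of 0.16.

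Matrix proteins outside the rule were measured for 22 of 79 listed genes, with 0 passing in limma, 4 higher and 3 lower at an unadjusted p under 0.05 (5.74% and 8.96% of all genes) and a median of -0.00. The smallest p was that of kera, keratocan, a proteoglycan of cornea and tendon, which read 8.72 and 8.05 in mutants, against 13.7 and 15.4 in wildtype larvae, with -0.73 ± 0.14 (SE) and a limma adjusted p of 0.081. The mutant arrays were below the dim bound and both wildtype arrays just above it.

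Markers of other cell types were counted and summed on each array. The lists share some genes, so their counts are not separate. Of the fibroblast and tenocyte list, kera and tgfbi also stand among the matrix proteins outside the rule. Of the notochord list, plod1a also stands among the genes that make collagen. Among all genes at their brightest probe set 1.03% were called higher and 0.967% lower by limma, and 5.74% and 8.96% were at an unadjusted p under 0.05. Of 6 fibroblast and tenocyte genes 0 passed in limma, with 1 higher and 1 lower at an unadjusted p under 0.05. Their sums were 1052 to 1447 intensity units in mutants and 975 to 1238 in wildtype larvae. Leaving out the matrix member col1a2, they were 408 to 439 in mutants and 318 to 405 in wildtype larvae. Of 8 notochord genes 0 passed, with 1 higher at an unadjusted p under 0.05, and sums were 1313 to 1762 in mutants and 1471 to 1540 in wildtype larvae. These ranges overlapped.

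For the cell types that follow, the sums stood apart, except those of hepatocyte genes. With 2 arrays in each group such an order is common. Of all single genes, 15.2% had both mutant arrays above and 29.4% had both below. All sums are of deposited intensities, so the brightest genes weigh most in them. Median log2 changes were 0.15 for endothelial, -0.17 for epidermal, 0.13 for muscle and 0.04 for hepatocyte genes. Of 6 endothelial genes 0 passed in limma, with 2 higher at an unadjusted p under 0.05, and sums were 342.4 to 349.9 in mutants and 230 to 268 in wildtype larvae. The changes of these 6 genes were above 0 in 3 and below 0 in 3. Of 12 epidermal genes 1, krt15, was called lower at a limma adjusted p of 0.044. The epidermal sums were 18930 to 20267 in mutants and 22868 to 24614 in wildtype larvae. Scaled on the controls, krt15 and krt5 had changes of -0.67 and -0.22, and the rest of this list lay between 0.05 and 0.72. Muscle genes, with 0 of 12 passing in limma and 1 lower at an unadjusted p under 0.05, summed to 56081 to 57949 in mutants and 48531 to 52297 in wildtype larvae. Of 11 myeloid genes 1 was called higher, with sums of 756 to 855 in mutants and 356 to 495 in wildtype larvae. The largest change in the myeloid list was 2.73, that of mmp9, beside a list median of 0.18. Only 1 gene of that list had an unadjusted limma p under 0.05. Of 11 hepatocyte genes 2 were called higher and 1 lower, with sums of 13004 to 19701 in mutants and 16105 to 19406 in wildtype larvae. Of 12 exocrine pancreas genes 10 were called lower, with a median change of -3.26 and sums of 2718 to 2949 in mutants and 22371 to 29327 in wildtype larvae. The part of these differences in the matrix values was not tested.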

How the data were processed

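The deposited intensities, 1 per probe set, came from the authors' RMA normalization according to the submitters' processing notes, with version and settings not given. RMA understates changes of dim and very bright probe sets. The 4 columns are linear and spanned 4.48 to 17601 once 115 array controls had been removed, which left 15502 probe sets. Platform annotation named 1 gene for 10795 of these, and all 62 members were matched to RefSeq gene symbols by Entrez gene ID. Where a gene needed 1 value, its brightest probe set by mean was used.

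The test was limma 3.58.1 under R 4.3.3 on log2(intensity + 1), with lmFit and eBayes (1 prior variance, 2 residual and 4.04 prior degrees of freedom), mutant minus wildtype, with two-sided p-values adjusted over all 15502 probe sets. SE is limma's moderated standard error and intervals are at 95%, unadjusted. Ratios are of group mean intensities. Precision is limited by the number of arrays. The fit was tested on simulated data. Calls were required there only of planted changes far larger than those of the members.

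Members and lists were chosen with earlier results of these data known, so no list was tested as a set. Named genes were uhrf1, the called members, the 8 largest rises and falls without overlap above the dim bound, in each class the brightest and the smallest p, the top gene of each pathway list, and members whose probe sets differed in sign by at least 0.3 each, of which there were none. All other members are given by class, and the osteoblast, chondrocyte and other marker genes named, with plod1a, were picked after their values were seen. No sequences were used here. Alternatives were other scalings, pseudocounts, priors, filters, thresholds, probe set means, updated symbols and leaving out each array.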

Additional observations from a re-analysis of the deposited data

How the results depend on the processing

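No paired analysis was made, since the labels do not say whether replicate numbers mark pairs, and the groups share only number 1. The count of 233 probe sets called (131 higher, 102 lower) became 5223 (5127 and 96) once arrays were scaled on the hybridisation controls, 80 (42 and 38) with a pseudocount of 16, 394 (207 and 187) with an intensity-dependent robust prior, 419 (213 and 206) at an adjusted p under 0.1, and 0 without moderation, where 496 were higher and 802 lower at an unadjusted p under 0.05. With 1 array left out it lay between 154 and 310, with 94 to 150 higher and 52 to 160 lower; 154 and 52 came without mutant replicate 1, and 310 and 160 without wildtype replicate 1. Without moderation 0 matrix probe sets were called, and 2 were higher and 1 lower at an unadjusted p under 0.05.

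The 1 matrix probe set called higher became 25 scaled on the controls (33.1% of all probe sets were called higher there), and 0 with a pseudocount of 16, with no moderation, with a log2 change of at least 1 required, with the mean of a gene's probe sets, and with any 1 array left out. The 0 called lower became 1, col10a1a, without the dimmest 25% of probe sets, with the robust prior and at an adjusted p under 0.1. Over the alternatives the adjusted p of col10a1a ran from 0.033 to 0.57, and that of tnn from 0.011 to 0.42. The median of 0.06 was 0.11 after quantile normalization and after median centring and 0.55 scaled on the controls, and 0.023 to 0.093 with 1 array left out. Scaled on the controls the change of uhrf1 turned to 0.069, that of col12a1b to 0.16, lamb4 to 0.36, col28a2a to 0.36 and sparc to 0.32. With 1 array left out, some changes took both signs: col2a1a from -0.059 to 1.04, col9a3 from -0.42 to 0.46 and lamb1a from -0.037 to 0.44 (lowest without mutant replicate 1), matn1 from -0.13 to 0.50 (below 0 without mutant replicate 1, at -0.013, and without wildtype replicate 3), sparc from -0.36 to 0.017 (above 0 without wildtype replicate 3), and loxl2b from -0.17 (without wildtype replicate 1) to 0.23. The cause of these differences was not tested. Probe sets near background limit what can be seen for 15 members.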

Other observations

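The actinodins, proteins of the fibres that stiffen the larval fin fold, were among the matrix proteins outside the rule and were picked after their values were seen. The gene and3 read 453 and 343 on the mutant arrays, against 641 and 642 on the wildtype arrays, a log2 change of -0.70 ± 0.17 (SE) at a limma adjusted p of 0.17. Its relative and2 read 936 and 674 on the mutant arrays, against 1276 and 1181 on the wildtype arrays, with -0.63 ± 0.19 (SE) and a limma adjusted p of 0.26, and and1 had a change of -0.19 with a limma adjusted p of 0.73. In all 3 genes both mutant arrays lay below both wildtype arrays, and none passed the test. That order was held by 6 of the 22 genes of this list and by 29.4% of all genes at their brightest probe set. The reverse order was held by 7 of the 22 and by 15.2% of all genes. Scaled on the hybridisation controls the changes were -0.21 for and3, -0.14 for and2 and above 0 for and1. The genes ccn1, of a matricellular protein, and tgm2b lay on the other side, with ccn1 at 95.3 and 74.2 in mutants, against 42.5 and 60.2 in wildtype larvae, and tgm2b, a transglutaminase that cross-links matrix, at 113 and 117 in mutants, against 81.6 and 74.4 in wildtype larvae. Their limma adjusted p-values were 0.25 and 0.16.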
